A study of Mus musculus with 12 samples.

Results

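Sites for miR-144-3p in 3′UTRs were examined in an Argonaute (Ago) HITS-CLIP study of mouse fetal liver. HITS-CLIP crosslinks protein to RNA, precipitates the protein with its bound RNA, and sequences the fragments, so that peaks of reads mark stretches occupied by Ago. The sites are the deposited peaks that lie in a 3′UTR, hold a 7-mer or 8-mer seed match to miR-144-3p and carry no seed code of any kind for miR-451a. This rule gave 620 of 106382 peaks, in 565 genes. It uses position and sequence only, and no read count. The libraries came from fetal liver cells of C57BL/6J mice of either genotype, wild type (WT) or without miR-144/451 (miR-144/451-/-, here KO). From each genotype 3 libraries were made with an antibody against Ago and 3 with control IgG, and all animals shared the strain. The design text speaks of 3 livers per genotype, but does not say which Ago and IgG libraries shared a liver. All p-values below measure the spread between libraries, which may be partly technical.

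MicroRNAs guide Ago to messenger RNAs mainly by pairing of their seed, the bases near the 5′ end, with sites that lie most often in 3′UTRs. Ago then recruits proteins of the TNRC6 family, which lower translation and shorten the life of the message. The miR-144/451 locus is switched on by GATA1 during red cell formation, the main activity of the fetal liver, and its products miR-144-3p and miR-451a are abundant in erythroblasts. A match to the seed becomes an 8-mer site when it is extended both by pairing with base 8 of the microRNA and by an A opposite its first base. A 7-mer-m8 site has the first of these extensions, a 7-mer-A1 site has the second, and a plain 6-mer site has neither.

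The mature sequences show which letters decide the site classes, with bases 2 to 8 in capitals. They are taken from RefSeq on GRCm38.p6, the assembly known as mm10. miR-144-3p lies on chromosome 11, positions 78073047 to 78073066 of the plus strand.
mmu-miR-144-3p: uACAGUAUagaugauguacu
mmu-miR-144-5p: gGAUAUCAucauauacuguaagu
mmu-miR-451a: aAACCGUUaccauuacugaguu
mmu-miR-101a-3p: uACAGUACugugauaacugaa
mmu-miR-16-5p: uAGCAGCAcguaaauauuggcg
The first 3 are made from the deleted locus. miR-16-5p is shown because its 3′UTR sites served as a comparison outside the locus. miR-101a-3p is shown because, of the other mouse microRNAs in a table of 1679, it alone shares bases 2 to 7 with miR-144-3p. None of them shares bases 2 to 8. The letters of 7-mer-A1 and 6-mer sites are therefore the same for miR-144-3p and miR-101a-3p, while the base that adds the m8 pairing matches miR-144-3p and not miR-101a-3p. A 7-mer-m8 site still holds the 6-mer, and an 8-mer site the 7-mer-A1, that miR-101a-3p shares. The site letters follow from the seed, and read from 5′ to 3′ in the message as below, where the 8-mer holds both 7-mers.
6-mer: UACUGU
7-mer-A1: UACUGUA
7-mer-m8: AUACUGU
8-mer: AUACUGUA
The sequence around each peak was not used here, so the authors' seed codes were taken as deposited.

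Of the 620 sites, 328 were 7-mer-A1, 151 were 7-mer-m8 and 141 were 8-mer. They made up 2.08% of the 29822 peaks in 3′UTRs. A further 142 peaks in 3′UTRs had a miR-144-3p 7-mer or 8-mer together with a miR-451a code and were left out by the rule. Sites were narrow, with a median width of 31 nt and a range of 16 to 105 nt, and peak heights, the maximum coverage over the Ago libraries, ran from 6 to 169 reads with a median of 13. Most genes, 516 of 565, had 1 site, 43 had 2 and 6 had 3. Within a gene, neighbouring sites were a median of 606 nt apart, and 7 of 55 gaps were under 100 nt. A 3′UTR peak with a 7-mer or 8-mer for miR-451a was present in 16 of these genes, and a coding peak with one for miR-144-3p in 34. Other seed codes of the locus were not counted over these genes. They were not rare near tested sites, as Tfrc, Pim1 and Hipk1 each had 3 other tested peaks with such a code. A miR-144-5p code of any kind was present at 52 of the 620 sites. Among the 620 sites, 8 also had a 7-mer or longer match to miR-16-5p, 3 to miR-144-5p, 3 to miR-21a-5p and 3 to miR-122-5p.

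The share of Ago-bound reads on the sites was lower in KO than in WT liver, and this was so in each comparison of a WT with a KO library. Libraries are named by the number in their title. All peaks together held 292010, 452157 and 202876 reads for WT Ago (libraries 1, 9 and 10). For KO Ago (libraries 3, 12 and 13) the totals were 198800, 341061 and 147969 reads. The IgG libraries were shallower, with 24622 to 42916 reads each. On the 620 sites, WT Ago libraries 1, 9 and 10 held 2792, 5330 and 1794 reads, or 0.956%, 1.18% and 0.884% of their peak reads. KO Ago libraries 3, 12 and 13 held 839, 2099 and 666 reads, or 0.422%, 0.615% and 0.450%. The groups did not overlap, and KO library 12 was the nearest to WT. Mean shares were 1.01% ± 0.154 (SD, n = 3) in WT and 0.496% ± 0.105 (SD, n = 3) in KO, a ratio of 2.03. With IgG the share was 0.353% ± 0.0314 (SD, n = 3) in WT and 0.245% ± 0.0560 (SD, n = 3) in KO. The IgG libraries held a lower share on the sites than the Ago libraries of the same genotype, but they differed between genotypes in the same direction. The share was 0.340%, 0.330% and 0.389% in WT IgG libraries 2, 6 and 11 and 0.310%, 0.215% and 0.211% in KO IgG libraries 4, 8 and 14, and these groups did not overlap either. The part of this IgG difference in the Ago difference was not tested. In whole tissue, fewer cells of a type and less RNA per cell cannot be told apart in such shares.

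The longest match showed the widest gap. In WT the 8-mer sites took 0.266%, 0.284% and 0.228% of the reads of Ago libraries 1, 9 and 10. In KO they took 0.0699%, 0.106% and 0.0662% of the reads of libraries 3, 12 and 13. The means of 0.259% ± 0.0285 and 0.0806% ± 0.0217 (SD, n = 3 each) gave a ratio of 3.21. The KO Ago level of 8-mer sites was close to the IgG level in WT liver, 0.0742% ± 0.00927 (SD, n = 3), and above that in KO liver, 0.0551% ± 0.0149 (SD, n = 3). For 7-mer-A1 sites the share was 0.515% ± 0.0899 in WT and 0.274% ± 0.0556 in KO Ago libraries (SD, n = 3 each), a ratio of 1.88. For 7-mer-m8 sites it was 0.232% ± 0.0422 and 0.141% ± 0.0306 (SD, n = 3 each), a ratio of 1.64. Sets outside the rule were measured in the same way. Plain 6-mer sites in 3′UTRs, just below the seed length of the rule, had a ratio of 1.14 over 366 peaks. Coding 7-mer and 8-mer sites for miR-144-3p had a ratio of 2.29 over 299 peaks. The 810 peaks in 3′UTRs with a miR-16-5p 7-mer or 8-mer went the other way, at a ratio of 0.716. Their mean share was 0.925% for WT Ago (SD 0.150, n = 3), against 1.29% for KO Ago (SD 0.159, n = 3). A ratio below 1 was also found for 3′UTRs at large. It was 0.836 for the 14999 peaks there without a seed code and 0.944 for all 29822. For both of these sets the shares of WT and KO Ago libraries overlapped. Whether the miR-16-5p ratio differs from that of other peaks in 3′UTRs was not tested.

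**Figure D1:**
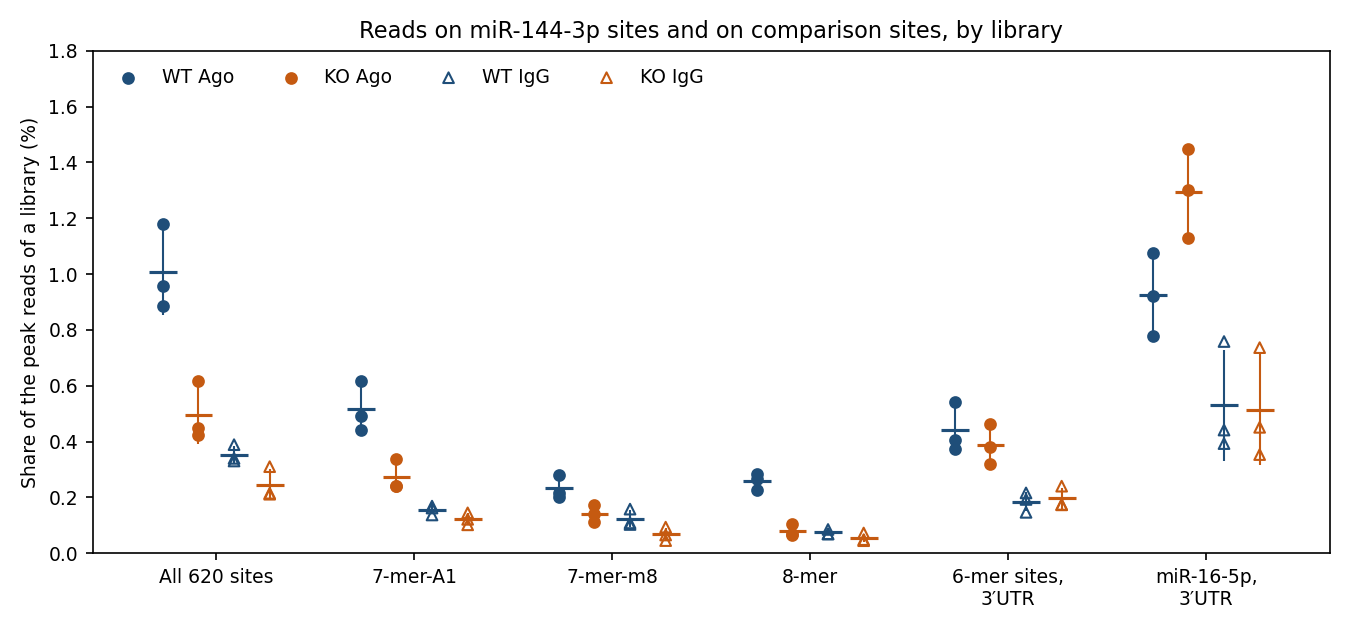
Share of a library's peak reads, in percent, that fell on the 620 miR-144-3p sites, on each site type, and on the 6-mer and miR-16-5p sites of 3′UTRs. Each point is a library, bars are the mean of 3 libraries with the SD, filled circles are Ago and open triangles IgG. The WT Ago libraries lie above the KO Ago libraries for the 620 sites and for 8-mer sites, at a mean of 0.259% against 0.0806% for the 8-mers, and below them for miR-16-5p sites.

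Site by site, most of the 620 leaned the same way. This count involves no filter and no test, and reads were scaled to each library's peak reads. The WT mean was above the KO mean at 498 sites (80.3%), against 43.6% of all peaks in 3′UTRs. At 202 sites (32.6%) every WT Ago library lay above every KO Ago library, against 8.99% of all peaks in 3′UTRs. The reverse order was seen at 12 sites (1.94%), against 10.1% of all peaks in 3′UTRs. All WT libraries lay above all KO libraries at 73 of 141 8-mer sites (51.8%), 100 of 328 7-mer-A1 sites (30.5%) and 29 of 151 7-mer-m8 sites (19.2%). For 6-mer sites the figure was 55 of 366 (15.0%). No read at all was found in the 3 KO Ago libraries at 74 sites (11.9%), 27 of them 8-mers, against 3.00% of all peaks in 3′UTRs. Every site had at least 2 reads in the WT Ago libraries. The median site had 10 reads over the 3 WT Ago libraries and 4 over the 3 KO Ago libraries, and 0 in the IgG libraries of either genotype. Peaks were called on the Ago libraries together, of which the WT held 947043 peak reads and the KO 687830.

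Depth limited the test of single sites. KO and WT Ago libraries were compared with the edgeR quasi-likelihood test and Benjamini-Hochberg adjustment over 2425 peaks that passed the filter on low counts. At an adjusted p under 0.05, KO was lower at 17.6% of all tested peaks and higher at 1.4%. The filter passed 35 of the 620 sites, and of these 15 were lower, 0 were higher and 20 were not called. Without adjustment, 18 were lower and 0 higher at p under 0.05, and limma-voom and DESeq2 called 14 and 12 lower and 0 higher. For these 3 counts the share over all tested peaks was not computed, so they cannot be set against one. Of the 15 lower sites, 11 reached the count minimum in WT libraries only and in 0 KO libraries. Such sites could pass only by differing, so the count and the medians of tested sites describe what was measured and support nothing about the other 585. The median log2 change, KO over WT, was −1.08 over the 35 sites and 0.09 over all tested peaks. With scaling by library size alone these medians were −0.93 and 0.25. By site type, 6 of 8 tested 8-mers, 8 of 17 7-mer-A1 sites and 1 of 10 7-mer-m8 sites were lower. Levels below are CPM, the usual depth-scaled count, over the reads in tested peaks after TMM scaling. Reads are listed for WT Ago libraries 1, 9 and 10, then for KO Ago libraries 3, 12 and 13.

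The 15 lower sites are ordered below by what their genes are known to do. This order was made after the calls were known, was not tested, and says nothing about a class of genes. Tfrc encodes the transferrin receptor, through which erythroblasts take up iron. Its 7-mer-m8 site (chromosome 16, 32632659 to 32632716, plus strand) had 57, 124 and 62 reads in WT and 3, 11 and 7 reads in KO, and the groups were far apart. The level was 1802 ± 360 CPM in WT and 188 ± 90.4 CPM in KO (SD, n = 3 each), a log2 change of −3.25 ± 0.39 (SE) with an adjusted p of 7.1e-05 in the edgeR test. It was the only 7-mer-m8 site that was called. Slc25a3, the mitochondrial phosphate carrier, had a 7-mer-A1 site (chromosome 10, 91116841 to 91116872, minus strand) with 28, 55 and 19 reads in WT and 4, 8 and 4 in KO. All KO libraries were low, at 141 ± 19.1 CPM against 728 ± 133 CPM in WT (SD, n = 3 each), a log2 change of −2.36 ± 0.37 with an adjusted edgeR p of 2.33e-04.

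Ubqln2, Rnf11, Psmd1 and Kbtbd2 act in protein breakdown through ubiquitin, and their sites fell. The tested sites of Otud4, Rnf139 and Usp25, which also act on ubiquitin, were not called, with adjusted edgeR p of 0.059, 0.293 and 0.86. Ubqln2 encodes a ubiquilin, which shuttles ubiquitinated proteins to the proteasome. Its 7-mer-A1 site (chromosome X, 153501006 to 153501046, plus strand) had 16, 27 and 9 reads in WT and 1, 3 and 0 in KO, a log2 change of −3.33 ± 0.56 with an adjusted edgeR p of 3.84e-04. Rnf11, a RING-domain ubiquitin ligase, had a 7-mer-A1 site (chromosome 4, 109453229 to 109453255, minus strand) with 28, 38 and 15 reads in WT and 3, 8 and 1 in KO. The groups were separate, at 594 ± 94.9 and 92.9 ± 56.9 CPM (SD, n = 3 each), a log2 change of −2.49 ± 0.43 with an adjusted edgeR p of 4.83e-04. Psmd1 encodes a subunit of the proteasome's regulatory particle. Its 8-mer site (chromosome 1, 86092015 to 86092041, plus strand) had 22, 20 and 12 reads in WT and 5, 4 and 1 in KO, a log2 change of −2.17 ± 0.47 with an adjusted edgeR p of 0.00277. Kbtbd2 is a substrate adaptor of cullin-based ubiquitin ligases. Its 7-mer-A1 site (chromosome 6, 56777814 to 56777839, minus strand) had 19, 41 and 10 reads in WT and 2, 10 and 1 in KO. KO library 12 was the highest of its group here, and the log2 change was −2.13 ± 0.49 with an adjusted edgeR p of 0.00423.

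Arid1a, Tada2b and Hnrnph1 encode nuclear proteins, and their sites fell. Tested sites of other nuclear proteins, Top1, Mcm5 and Kdm7a, were not called, with adjusted edgeR p of 0.0617, 0.231 and 1.00. Arid1a is a DNA-binding subunit of the BAF chromatin remodelling complex. Its 8-mer site (chromosome 4, 133679739 to 133679776, minus strand) had 26, 36 and 14 reads in WT and 3, 2 and 1 in KO, and no KO library came near the WT level. The log2 change was −3.32 ± 0.47 with an adjusted edgeR p of 1.37e-04. Tada2b is an adaptor of the SAGA histone acetyltransferase complex. The 8-mer site of this gene (chromosome 5, 36474583 to 36474608, minus strand) had 16, 25 and 12 reads in WT and 3, 0 and 1 in KO, a log2 change of −3.35 ± 0.61 with an adjusted edgeR p of 6.77e-04. The WT libraries were nearly equal after scaling, at 394 ± 4.78 CPM (SD, n = 3). Hnrnph1 is a splicing regulator. Its 7-mer-A1 site (chromosome 11, 50386104 to 50386132, plus strand) had 12, 40 and 13 reads in WT and 0, 4 and 1 in KO, a log2 change of −3.33 ± 0.59 with an adjusted edgeR p of 5.95e-04.

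Sites in Kif2a and in the kinases Pim1 and Hipk1 fell as well. The tested site of another kinase, Sik2, was not called, with a log2 value of −0.19 ± 0.39 and an adjusted edgeR p of 0.813. Kif2a, a kinesin that takes microtubules apart, had the largest fitted change among the 15 lower sites. At this 7-mer-A1 site (chromosome 13, 106961535 to 106961565, minus strand) there were 33, 48 and 20 reads in WT and 2, 5 and 0 in KO, a log2 change of −3.55 ± 0.49 with an adjusted edgeR p of 1.2e-04. Pim1 is a serine/threonine kinase that promotes survival of blood cells. Its 8-mer site (chromosome 17, 29496018 to 29496047, plus strand) had 41, 71 and 40 reads in WT and 7, 24 and 4 in KO, or 1149 ± 159 and 272 ± 161 CPM (SD, n = 3 each). The log2 change was −1.95 ± 0.37 with an adjusted edgeR p of 0.0011. Hipk1, a nuclear kinase, had a 7-mer-A1 site (chromosome 3, 103742543 to 103742570, minus strand) with 31, 53 and 30 reads in WT and 13, 22 and 5 in KO. The groups were separate but closer, with a log2 change of −1.30 ± 0.34 and an adjusted edgeR p of 0.00979. Without KO library 13 that p was 0.0753, and with all 12 Ago and IgG libraries in the fit it was 0.114.

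The remaining 3 sites were the least certain. Frs2 is an adaptor that links growth factor receptors to MAP kinase signalling, and its 8-mer site (chromosome 10, 117070223 to 117070248, minus strand) had 13, 21 and 9 reads in WT and 1, 8 and 3 in KO. Its log2 change was −1.57 ± 0.46 with an adjusted edgeR p of 0.0238, which became 0.0943 without KO library 3 and 0.0644 without KO library 13. Pkn2, a serine/threonine kinase of the protein kinase N family, had a 7-mer-A1 site (chromosome 3, 142791651 to 142791703, minus strand) with 20, 41 and 12 reads in WT and 9, 12 and 2 in KO. Its log2 change was −1.38 ± 0.41 with an adjusted edgeR p of 0.0257, which became 0.149 without WT library 9 and 0.124 without KO library 13. Tollip is an adaptor that dampens Toll-like receptor signalling. At its 8-mer site (chromosome 7, 141883430 to 141883463, minus strand) there were 13, 21 and 9 reads in WT and 6, 7 and 2 in KO. The log2 change of −1.25 ± 0.41 had an adjusted edgeR p of 0.0431, which became 0.0700 without WT library 10 and 0.193 without KO library 13. None of these 3 sites had overlapping groups, but DESeq2 called none of them, with adjusted p of 0.0988, 0.0730 and 0.221. Over all alternatives that tested them, the call was lost in 5 of 10 for Frs2, 6 of 13 for Pkn2 and 8 of 10 for Tollip. The other 11 of the 15, with Hipk1 set aside, were called under each alternative that tested them.

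The number of lower sites depended on which libraries entered the fit, and so did the number that passed the filter. It was 13 of 27 tested without WT library 1, 9 of 23 without WT library 9 and 32 of 61 without WT library 10. It was 34 of 71 without KO library 3, 20 of 32 without KO library 12 and 30 of 74 without KO library 13. No such fit called a site higher. The share of all tested peaks called lower was not computed for these fits, so the counts cannot be set against it.

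**Figure D2:**
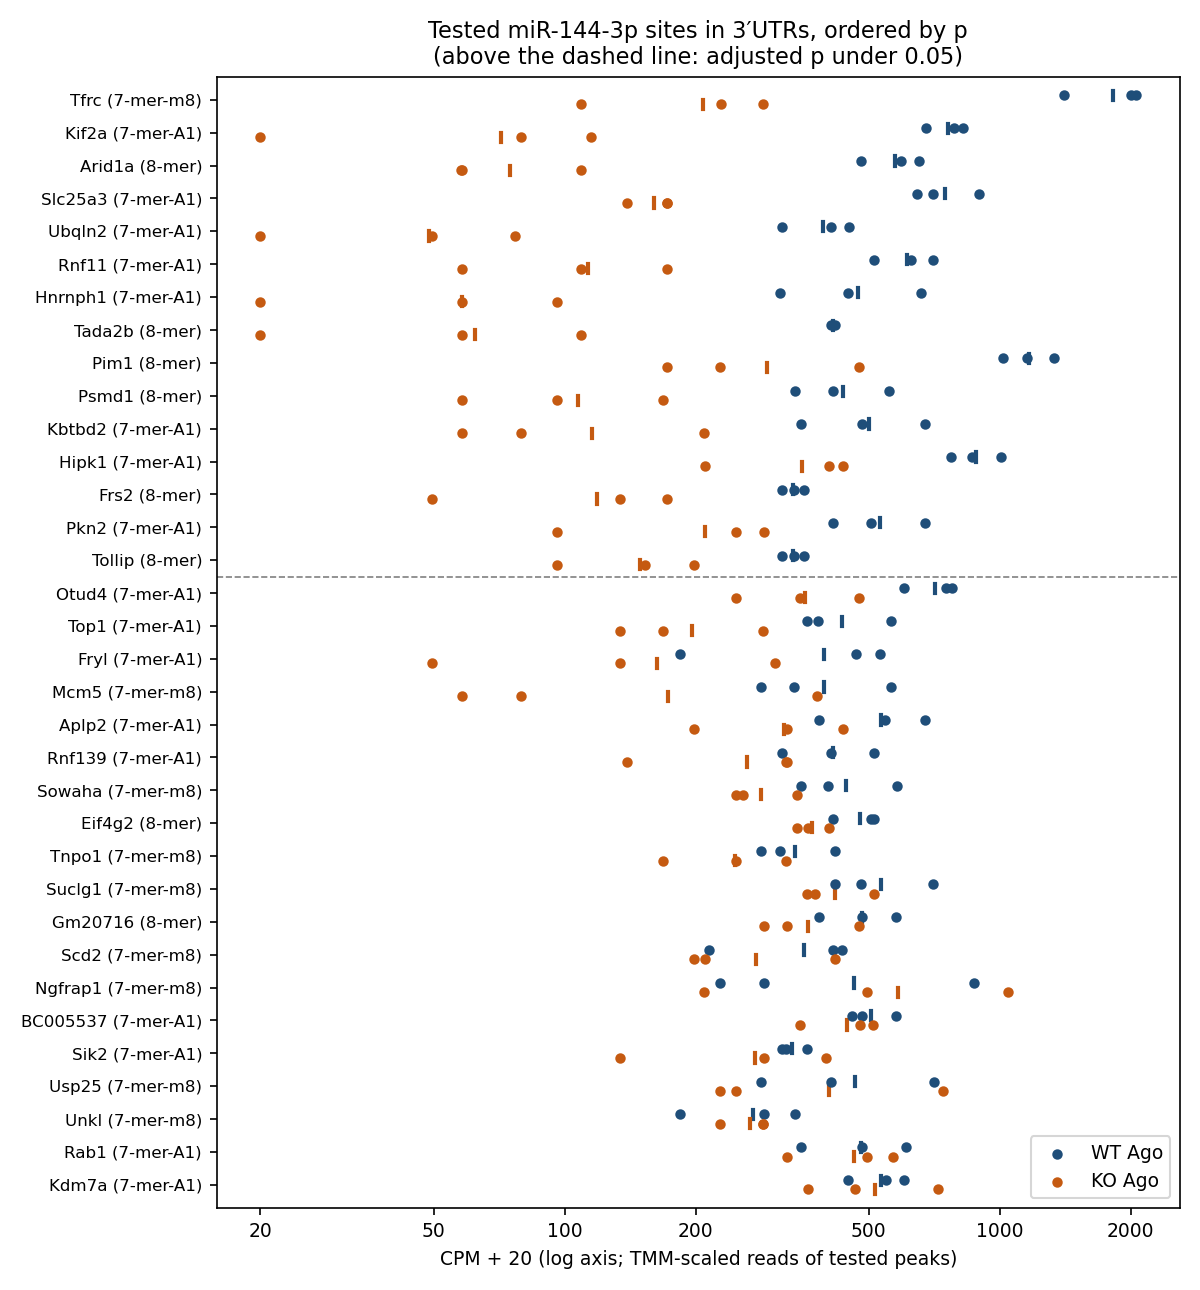
Level of the tested miR-144-3p sites in WT and KO Ago libraries, in CPM plus 20 on a log axis, with sites ordered by p and the site type in parentheses. Points are libraries and vertical bars the mean of 3. At the 15 sites above the dashed line the WT and KO points do not overlap, and towards the bottom, at Rab1 and Kdm7a, they are mixed.

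The 20 tested sites that were not called included several with as many WT reads. Otud4 encodes a deubiquitinase, and its 7-mer-A1 site (chromosome 8, 79674991 to 79675058, plus strand) also carries an 8-mer code for miR-16-5p. It had 24, 46 and 23 reads in WT and 11, 24 and 6 in KO, a log2 change of −0.97 ± 0.34 with an adjusted edgeR p of 0.059. Its groups did not overlap, and the adjusted p was 0.0293 without WT library 1 and 0.0409 without KO library 12. Aplp2 encodes a relative of the amyloid precursor protein. At its 7-mer-A1 site (chromosome 9, 31150712 to 31150743, minus strand) there were 15, 41 and 16 reads in WT and 6, 22 and 8 in KO, and the log2 value was −0.75 ± 0.38 with an adjusted edgeR p of 0.238. Suclg1, a subunit of succinyl-CoA ligase, had a 7-mer-m8 site (chromosome 6, 73260560 to 73260592, plus strand) with 28, 25 and 14 reads in WT and 12, 18 and 13 in KO, which overlapped after scaling. Kdm7a, a histone demethylase, had a 7-mer-A1 site (chromosome 6, 39140556 to 39140627, minus strand) with 24, 33 and 13 reads in WT and 15, 37 and 9 in KO. Its levels were alike, 513 ± 79.4 and 496 ± 185 CPM (SD, n = 3 each). BC005537 had a 7-mer-A1 site (chromosome 13, 24813699 to 24813759, plus strand) with 18, 29 and 17 reads in WT and 11, 26 and 12 in KO, and a log2 value of −0.17 ± 0.33.

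The 2 tested 8-mers that were not called were those of Eif4g2 and Gm20716. Eif4g2 encodes a relative of the translation factor eIF4G, and its 8-mer site (chromosome 7, 111072302 to 111072349, minus strand) had 20, 31 and 12 reads in WT and 13, 17 and 9 in KO. The groups did not overlap, at 459 ± 55.8 and 350 ± 32.7 CPM (SD, n = 3 each), but the log2 value was small, −0.41 ± 0.32, with an adjusted edgeR p of 0.473. The site that the files assign to Gm20716 (chromosome 2, 168189302 to 168189354, minus strand) lies, in RefSeq, within both Adnp and the read-through gene Gm20716. Its reads were 15, 29 and 17 in WT and 9, 24 and 8 in KO, with a log2 value of −0.37 ± 0.35 and an adjusted edgeR p of 0.57. Of the remaining uncalled sites, Top1 came nearest, with a log2 value of −1.16 ± 0.41 and an adjusted edgeR p of 0.0617, which was 0.0341 without WT library 1 and also without KO library 12. Fryl followed at −1.25 ± 0.54 and an adjusted p of 0.14, which was 0.0382 without WT library 10 and 0.0206 without KO library 12. The site of Ngfrap1 was the only tested one with a log2 value above 0, at 0.35 ± 0.59. The Fryl and Unkl sites had the same or nearly the same counts as peaks elsewhere in the genome, so their reads cannot be placed at these genes alone. Only the tested sites were checked in this way. Among untested sites, 1 of Tfb2m and that of Gm1818 had identical counts in every library, as did those of Timm8a1 and Gm9797. Totals over the 620 sites may therefore hold some reads more than once.

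A change in the amount of a message would move all its peaks, so each site was also set against the other tested peaks of its gene. The edgeR diffSpliceDGE test covered 1398 peaks in genes with at least 2 tested peaks, of which 8.01% were lower and 3.58% higher relative to their gene. It held 26 of the 620 sites, and 8 were lower relative to their gene and 0 higher. At p under 0.05 without adjustment the counts were 9 and 0, and limma-voom called 9 lower and 0 higher. Shares over all tested peaks were not computed for these counts. The median was −0.35 for the 26 sites and 0.03 over all tested peaks. In Slc25a3 the site was lower relative to its gene by a log2 of −1.92 ± 0.37 (adjusted p = 0.00111), and the other 4 peaks ranged from −0.54 to 0.27 in the KO and WT comparison. Rnf11 gave −1.70 ± 0.42 (adjusted p = 0.00857), with its other peak at 0.56. Frs2 gave −1.69 ± 0.42 (adjusted p = 0.0104), with its other peaks at 0.77 and 0.92. The 3 genes thus had a low site among peaks that were not called lower. For Arid1a the relative value was −2.22 ± 0.56 (adjusted p = 0.00984) and the other peak was at −0.16.

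In Tfrc, Pim1 and Hipk1 other peaks fell too, and in each gene another tested peak had a lower log2 value than the site. The lowest other peak was at −3.44 in Tfrc, −2.45 in Pim1 and −3.08 in Hipk1. The Tfrc site was lower relative to its gene by −1.74 ± 0.42 (adjusted p = 0.00361), although 5 of its 9 other tested peaks were also lower in KO, 3 of them with a seed code of the locus. Pim1 gave −1.36 ± 0.37 (adjusted p = 0.0104), and 1 of its 7 other peaks, with a locus code, was lower. Hipk1 gave −1.12 ± 0.30 (adjusted p = 0.0366) and Pkn2 −1.31 ± 0.41 (adjusted p = 0.0342). Psmd1 was not called, at −1.38 ± 0.46 (adjusted p = 0.0527). Kif2a was not called either, at −0.59 ± 0.61 (adjusted p = 0.765), and the only other tested peak of that gene, with a locus code, fell by 2.47 on the log2 scale. Ubqln2, Hnrnph1, Tada2b, Kbtbd2 and Tollip had no other tested peak. Among these calls that of Slc25a3 was the only one kept under each alternative that tested it. The Slc25a3 site was not among the peaks of the authors' filter. Without KO library 12 the count of lower sites was 3 of 20 tested, and the adjusted p was 0.0961 for Tfrc and 0.22 for Arid1a. Without KO library 3 the p was 0.0693 for Tfrc, 0.204 for Rnf11 and 0.119 for Frs2. Without KO library 13 it was 0.0894 for Pim1, 0.242 for Rnf11, 0.125 for Hipk1 and 0.0965 for Pkn2. Without WT library 10 the p of Rnf11 was 0.135 and that of Hipk1 0.0940. Without WT library 9, WT library 1 or KO library 12 Pkn2 and Hipk1 both lost their calls, with p from 0.0516 to 0.135, and without KO library 3 the p of Pkn2 was 0.0624.

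**Figure D3:**
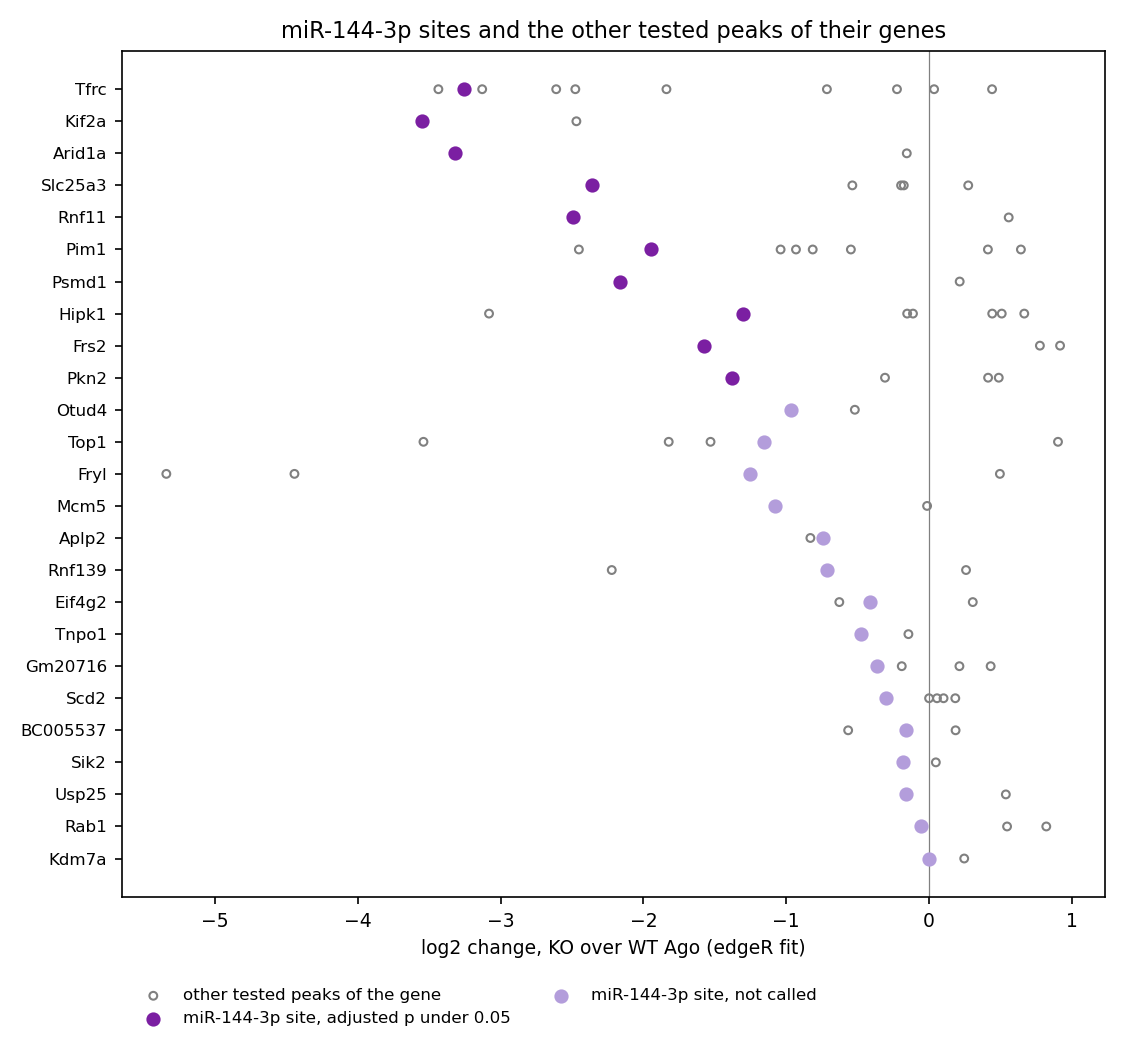
Log2 change, KO over WT Ago, of the tested miR-144-3p sites (filled circles, darker where the adjusted p was under 0.05) and of the other tested peaks of the same gene (open circles), for genes with at least 1 other tested peak. In Slc25a3, Rnf11, Arid1a and Frs2 the site stands to the left of the other peaks. In Tfrc, Pim1, Hipk1 and Top1 another peak lies farther to the left than the site.

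A looser filter brought more sites into view. The authors' own filter kept 6651 peaks, of which 110 are among the 620 sites, and edgeR on those peaks called 28.5% lower and 4.47% higher. Of the 110 sites, 58 were lower and 0 higher, and 1 had a p under 0.05 without adjustment and a higher value. The unadjusted share over all peaks was not computed. The share of lower sites ran by site type from 26 of 32 8-mers (median log2 change −2.36) to 24 of 57 7-mer-A1 sites (−1.15) and 8 of 21 7-mer-m8 sites (−0.93). For 6-mer sites in 3′UTRs it was 12 of 34 (−0.12). The median over all 6651 peaks was −0.09. This filter, too, can be passed through 1 genotype alone, so these counts describe the sites that passed. In the authors' deposited table, from their own fit on the same peaks, a false discovery rate under 0.05 marked 35.7% as lower and 1.29% as higher. That authors' deposited table had 75 of the 110 sites lower and 0 higher, among them 30 of 32 8-mers, 34 of 57 7-mer-A1 sites and 11 of 21 7-mer-m8 sites. Of the 15 sites lower in the stricter fit, 13 are in the authors' deposited table, and 13 are lower there.

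**Figure D4:**
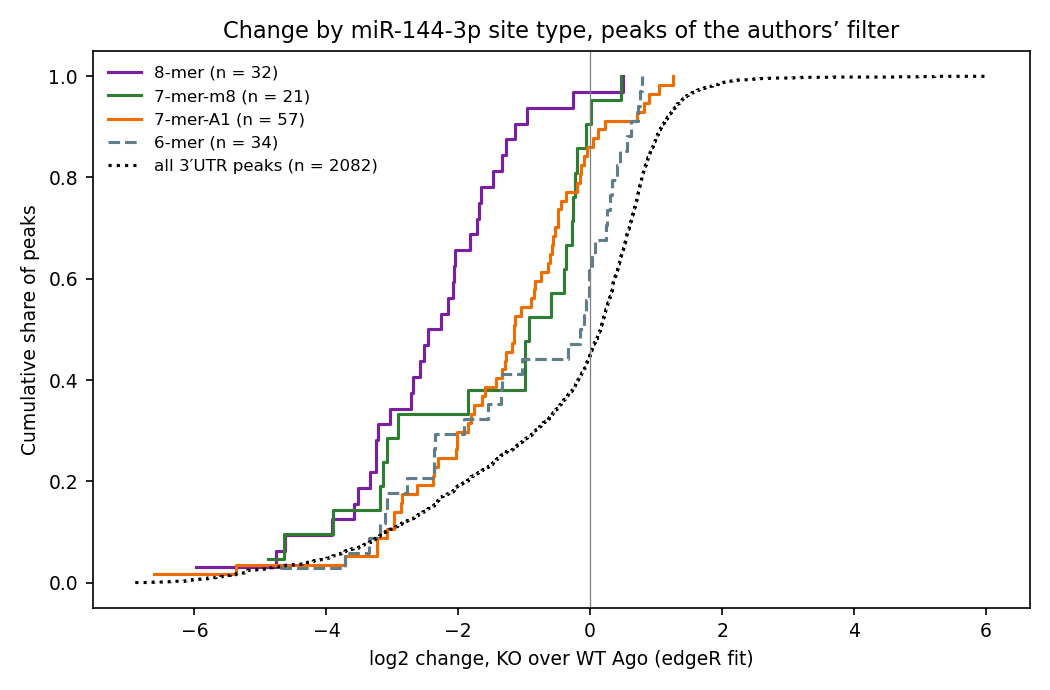
Cumulative share of peaks, on the y axis, at or below each log2 change, KO over WT Ago, on the x axis, for the peaks of the authors' filter. Lines are 8-mer, 7-mer-m8, 7-mer-A1 and 6-mer sites and all peaks in 3′UTRs. The 8-mer line is farthest to the left, with a median of −2.36, and the 6-mer line has its median at −0.12.

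Few sites had the depth for a test against IgG. WT Ago and WT IgG libraries were compared over 894 peaks, of which 35.9% were higher with Ago in the edgeR test. The 6 sites that passed the filter were all higher, which the calling of peaks on Ago reads partly fixes. The filter on low counts can also be passed through the Ago libraries alone. Otud4, for example, had 0, 0 and 1 reads in WT IgG libraries 2, 6 and 11. The 6 calls therefore say nothing about the sites that were not tested against IgG. Their log2 differences, Ago over IgG, were 5.33 ± 0.81 for Otud4, 4.62 ± 0.74 for Slc25a3, 3.75 ± 0.56 for Pim1, 3.15 ± 0.56 for Kif2a, 3.02 ± 0.55 for Tfrc and 2.93 ± 0.54 for Hipk1. Without WT Ago library 1, 9 or 10 only 1 site could be tested. More passed the filter without a WT IgG library, and not all of them were called. The higher sites were 30 of 36 tested without library 2, 29 of 40 without library 6 and 28 of 39 without library 11. Shares over all tested peaks were not computed for these fits. In KO liver, where 40% of 645 tested peaks were higher with Ago, 0 of the 620 sites passed the filter, so none was tested by edgeR or DESeq2. The IgG reads at the Tfrc site were 2, 5 and 9 in WT libraries 2, 6 and 11 and 3, 2 and 0 in KO libraries 4, 8 and 14. At Frs2 and Tada2b all 6 IgG libraries had 0 reads.

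The 585 sites that were not tested had 2 to 52 reads over the WT Ago libraries, with a median of 10, and 0 to 29 over the KO Ago libraries, with a median of 3. Those with the most WT reads were as follows. Herpud1, a factor of protein breakdown at the endoplasmic reticulum, had an 8-mer site with 20, 26 and 6 reads in WT and 1, 6 and 0 in KO. Stag1, a cohesin subunit, had a 7-mer-m8 site with 15, 30 and 6 reads in WT and 2, 8 and 1 in KO. Rock1, a kinase that acts on the actomyosin cytoskeleton, had a 7-mer-A1 site with 10, 28 and 9 reads in WT and 3, 4 and 0 in KO. In each of these the KO reads were few. Zfp800, a zinc finger protein, had a 7-mer-m8 site with 8, 29 and 10 reads in WT and 4, 12 and 3 in KO. On the peaks of the authors' filter the log2 change was −2.31 ± 0.58 for Rock1 (edgeR adjusted p = 0.00172) and the value −0.93 ± 0.47 for Zfp800 (edgeR adjusted p = 0.13).

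Genes reported in the literature as miR-144 targets were few among the sites. The list had 20 genes, and 6 had a site: Tfrc, Ezh2, Nfe2l2, Mtor, App and Zeb1. Only the Tfrc site was tested, and over all peak types of the listed genes 10 of 21 tested peaks were lower and 0 higher, with a median log2 change of −0.72, against 17.6% lower and 1.4% higher over all tested peaks. Tfrc alone gave its site and 9 other tested peaks to this count, and the site and 5 of the others were lower. The list was put together by hand with earlier results of these data known. Ezh2 encodes the histone methyltransferase of Polycomb complex PRC2. Its 7-mer-A1 site had 15, 17 and 4 reads in WT and 3, 10 and 1 in KO. Nfe2l2, the transcription factor NRF2 of the oxidative stress response, had an 8-mer site with 12, 10 and 7 reads in WT and 1, 2 and 0 in KO. The 3 WT libraries were all above the KO libraries at Nfe2l2. The sites of Mtor, App and Zeb1 had 11, 6 and 4 reads over the WT libraries and 7, 7 and 2 over the KO libraries, too few to order the groups. On a list of 10 miR-451 targets, 1 gene, Rab14, had a site, with 9 reads in WT and 6 in KO.

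Genes of the silencing machinery itself had 4 sites, none tested. Tnrc6b, a TNRC6 protein that Ago recruits, had a 7-mer-A1 site with 5, 21 and 6 reads in WT and 0, 7 and 1 in KO, and its log2 change on the peaks of the authors' filter was −1.60 ± 0.62 (edgeR adjusted p = 0.0452). A second Tnrc6b 7-mer-A1 site had 7, 7 and 3 reads in WT and 1, 2 and 0 in KO. Both had fewer reads in KO. Ago2, the Argonaute that can cut its target, had a 7-mer-m8 site with 1, 11 and 3 reads in WT and 0, 1 and 1 in KO, and Ago3 a 7-mer-A1 site with 1, 3 and 2 in WT and 1, 4 and 3 in KO. Over all peak types, 4 of 22 tested peaks of this list were lower and 2 higher, beside 17.6% and 1.4% of all tested peaks.

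The other gene lists, also put together by hand, do not cover all genes of their kind, and sites in genes outside them are described above. Of 13 sites in the listed genes of transcription factors and chromatin proteins 1 was tested, that of Arid1a. On the peaks of the authors' filter 4 of 4 were lower, beside 58 of 110 among all the sites and 28.5% of all peaks there. The 4 included Arid4b, a subunit of the SIN3A corepressor complex, at −2.02 ± 0.66 (edgeR adjusted p = 0.0164). They also included a pair of sites in Nsd1, a histone methyltransferase. The Nsd1 sites lie next to each other (chromosome 13, 55318226 to 55318275 and 55318285 to 55318305), so they are not far apart as separate sites. The first Nsd1 site changed by −1.85 ± 0.58 (edgeR adjusted p = 0.0119). The second had 7, 7 and 3 reads in WT and 0 in all KO libraries. Of 9 sites in genes of RNA-binding proteins and translation only that of Eif4g2 was tested. On the authors' filter Rc3h2, a roquin protein that destabilises messages, had an 8-mer site that changed by −2.52 ± 0.64 (edgeR adjusted p = 0.00187). Syncrip, an RNA-binding protein, had a value of −1.15 ± 0.51 (edgeR adjusted p = 0.0836). Of 10 sites in the 37 listed kinases and phosphatases, which leave out Pim1, Hipk1, Pkn2 and Sik2, 0 were tested, and besides Rock1 the authors' filter held Clk1, a kinase of splicing factors, at −0.60 ± 0.48 and Dyrk1a at −0.14 ± 0.53. Of 6 sites in vesicle transport and membrane proteins Tfrc was lower and Aplp2 was not called. Of 4 sites in the 28 listed ubiquitin and protein breakdown genes, which leave out Ubqln2, Psmd1, Kbtbd2 and Otud4, only that of Rnf11 was tested. The 6 sites in cell cycle and chromosome genes were all untested. Over all peak types the lower peaks were 9 of 34 tested for chromatin (2 higher), 7 of 35 for RNA-binding (2 higher), 7 of 18 for kinase, 13 of 48 for vesicle, 4 of 18 for ubiquitin and 16 of 58 for cell cycle genes, with 0 higher in the last 4 lists. The Tfrc peaks are part of the vesicle count, and of these the site and 5 of 9 others were lower. Over all tested peaks 17.6% were lower and 1.4% higher.

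Cell type markers were checked because fetal liver holds several cell types. Of 20 erythroid markers 14 had a peak, while the globin genes Hba-a1, Hba-a2, Hbb-bs and Hbb-bt, as well as Ahsp and Epb42, had none. Peaks of the erythroid markers took 1.75% to 2.12% of the peak reads of the WT Ago libraries and 1.30% to 1.61% of the KO Ago libraries, which did not overlap, against 1.27% to 2.29% and 1.47% to 2.46% with IgG. The Tfrc site described above is among these peaks. All 14 hepatocyte markers had peaks, none of them one of the sites, with 0.660% to 1.96% of reads in WT Ago and 1.23% to 2.41% in KO Ago libraries. These ranges overlapped, and the IgG ranges reached higher, at 1.69% to 2.50% in WT and 1.89% to 2.74% in KO. Markers of granulocytes, macrophages and megakaryocytes took at most 0.189% in any Ago library, with Cd68, Gp1ba, Gp9 and Itga2b without a peak. Their part in the results on the sites was not tested.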

How the data were processed

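Read counts per peak were analysed for 6 Ago and 6 IgG libraries. Per the submitters' processing notes, the tools were cutadapt, STAR, bedtools and limma with build mm10, in versions not given in the sources used here. Per the file headers and their description, a deposited count is the number of raw reads overlapping a peak by 16 bases or more. The authors also deposited peak coverage as an unscaled signal, an IgG to Ago ratio, seed codes and density as a score, and a table of log2 fold changes with p-values from their own voom and limma fit. Coverage, ratio and score served only to rebuild the authors' filter (lowest height of 3, IgG ratio under 0.2, density over background above 5), which gave their 6651 peaks.

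Counts were tested with edgeR 4.0.16 in R 4.3.3 (TMM, filterByExpr at its defaults of 10 reads and 15 in total, quasi-likelihood test, Benjamini-Hochberg over all tested peaks, threshold 0.05). Effective library sizes were 26287 to 62651 reads. The fits were tested on simulated data. Library size alone, RLE scaling, no filter, the authors' filter, limma-voom (limma 3.58.1), DESeq2 1.42.0, all 12 libraries together and leaving out each library were alternatives. Of the 565 gene names, 545 matched a RefSeq symbol, 19 only a synonym, and 1 had been turned into a date.

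Values per library are given for the 15 sites called lower, the 6 uncalled sites with the highest WT level, every tested 8-mer, sites in literature targets and silencing genes, and untested sites with the most WT reads. For other lists up to 4 sites by p are named. The sites and lists were chosen with earlier results of these data known. No 2 libraries held identical counts. A few results are not reported here, and the figures leave them out as well.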

Additional observations from a re-analysis of the deposited data

How the results depend on the processing

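Of 181 alternative values for the 15 lower sites 160 kept their call, 21 lost it and 0 changed sign. The count of 15 lower sites became 65 without a filter beyond 1 read, when all 620 were tested, and 58 on the peaks of the authors' filter, and 12 of the 15 were called in each. It was 11 with all 12 libraries in the fit and 9 to 34 when a library was left out. Relative to the gene, the count of 8 became 13 without a filter and 14 on the authors' filter, where 1 site was higher, and 3 to 7 when a library was left out. Against IgG the 6 WT sites became 104 without a filter and 1 to 30 when a library was left out, and the 0 KO sites became 16 without a filter and 0 to 4. Fewer or more sites passed the filter in these fits, except in that of all 12 libraries, which used the same peaks. Shares over all tested peaks were not computed for any of these fits, except for KO against WT on the authors' filter, where 28.5% were lower.

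Uncalled sites near 0 changed sign. With library size alone Rab1 was at 0.10, Unkl at 0.066 and Kdm7a at 0.16. On the authors' filter they were at 0.047, 0.020 and 0.11. With all 12 libraries in the fit Rab1 was at 0.26, Unkl at 0.23, Kdm7a at 0.31, BC005537 at 0.16, Usp25 at 0.14, Sik2 at 0.13 and Scd2 at 0.018. The cause was not tested. When a library was left out, log2 values ran from −0.26 to 0.21 for Rab1, −1.08 to 0.36 for Usp25, −0.35 to 0.25 for Kdm7a, −0.30 to 1.12 for Ngfrap1, −0.36 to 0.0039 for BC005537, −0.29 to 0.032 for Unkl and −0.27 to 0.15 for Sik2.

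The filter on low counts left 585 of 620 sites out of the test, and their low counts limit what any setting can show for them. No paired analysis was made, because the labels do not say which Ago and IgG libraries shared a liver.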

Other observations

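Of 49 genes with 2 or more sites, 9 had every WT Ago library above every KO Ago library at each of their sites, 24 at some and 16 at none. Single sites showed this order at 32.6% of the 620, against 8.99% of all peaks in 3′UTRs. Whether the split by gene differs from what these shares would give was not tested. The sites below were chosen after their values were seen. Med4, a subunit of the Mediator complex, had a pair of sites, a 7-mer-A1 site with 14, 24 and 4 reads in WT Ago libraries 1, 9 and 10 and an 8-mer site with 5, 9 and 2, and both had 0 reads in all KO Ago libraries. The 8-mer site of Cnot6, a deadenylase of the CCR4-NOT complex that shortens the tails of messages, had 10, 11 and 5 reads in WT and 0 in all KO Ago libraries. Ep400, a chromatin remodelling ATPase, had a 7-mer-m8 site with 11, 29 and 4 reads in WT and 0, 1 and 0 in KO. Spread over the 3′UTR of Otud4 were 3 sites with 93, 16 and 17 reads over the WT and 41, 15 and 5 over the KO libraries. At Tnpo1, a nuclear import receptor, 1 of 3 sites had more reads in KO, 14 against 6.

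The 12 sites where every KO Ago library lay above every WT Ago library had 2 to 17 WT reads and 4 to 25 KO reads, and 10 of them were 7-mer-A1 sites. The highest was that of Cdyl, a chromodomain protein, with 17 reads over the WT and 25 over the KO libraries, followed by Cfl2, a cofilin, with 12 and 23, and Ssh1, a cofilin phosphatase, with 14 and 23. Vcam1, an adhesion molecule of the macrophages and stroma that hold erythroblasts, had 12 and 20. None of them passed the filter on low counts.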
